A study of Mus musculus with 41 samples.

Results

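Transcription factor Nr6a1 was targeted with CRISPR guides in differentiating mouse neural progenitors, and the RNA of those cells was compared with that of cells given a non-targeting guide (NT, the control) at days 7 and 9. The comparison rested on 10 of the 41 libraries of the series, chosen by their labels: Nr6a1 guides at day 7 (replicates 2 and 3), Nr6a1 guides at day 9 (replicates 1 and 3), and NT at day 7 and at day 9 (3 replicates each). All groups were R1-iCas9 cells, a mouse embryonic stem cell line in which doxycycline induces Cas9. Cas9 was induced in the NT cells too, so by their labels the groups differed in the guide only: Nr6a1 received a pool of 5 guides with tracrRNA, and NT received a commercial non-targeting RNA. Every culture then went through the same monolayer course in N2B27 medium with bFGF, followed by the GSK3β inhibitor CHIR99021, by retinoic acid with the Smoothened agonist SAG, and by SAG alone, which drives cells towards ventral spinal cord. The labels name the genotype "Nr6a1 KO", but give no edited fraction and no clone selection, and indels made by guides need not lower a transcript.

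Nr6a1, also called GCNF, is an orphan nuclear receptor that binds repeats of the hexamer AGGTCA and is known mainly as a repressor. In differentiating stem cells it is known for silencing pluripotency genes such as Pou5f1 and Nanog, and in the embryo it sets the extent of the trunk and the timing of Hox genes. In neural development it belongs with Lin28a and Trim71, genes that are high in early progenitors and fall as the cells mature.

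Libraries held 10520080 to 25024891 estimated counts, and 13879 of the 24410 genes in the table had enough counts to be tested. Levels are given as CPM, counts scaled for the depth and composition of each library. The limit for a gene without counts lay between 0.116 and 0.305 CPM, depending on the library, and covers counting error only. Of the markers checked for the labelled neural progenitors, all 6 were present in every library and none passed the test between Nr6a1 guides and NT over both days. Their summed level was 1028 to 1183 CPM with Nr6a1 guides and 1117 to 1135 CPM with NT at day 7. At day 9 it was 1165 to 1218 against 1189 to 1337 CPM. Nes made up the largest part of the sum, which hid opposite differences at day 7. Fabp7 was then at 146 and 102 CPM against 76.9, 74.9 and 72.1 CPM. Nes was also higher, and Sox1 and Sox3 were lower, each without overlap at day 7. Sox2 and Pax6 overlapped at day 7, and all 6 markers overlapped at day 9. The first principal component of log2 CPM held 41.4% of the variance and separated the days. On it the Nr6a1 libraries stood at -17.9 and -27.7 at day 7, against -45.1 to -49.3 for NT, and at 51.9 and 44.8 at day 9, against 24.6 to 35.4 for NT. At both days the Nr6a1 libraries were therefore displaced in the direction that runs from day 7 to day 9. Nr6a1 replicate 2 of day 7 stood apart on the second component (46.1, against -27.2 to 18.5 in the other 9 libraries). Rn45s, the ribosomal RNA precursor, took 10.4% and 6.71% of the counts in the Nr6a1 libraries of day 7 and 14.1% to 14.8% in NT. With Rn45s left out of the fit, 321 genes passed in place of 322. Leaving it out removes only its own counts, so it cannot show whether this difference between the libraries went with changes in other genes. The part of that difference in the results was not tested. The labels do not say that replicates came from separate cultures, so p-values measure the spread between these libraries.

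The Nr6a1 transcript itself was reduced. The gene lies on chromosome 2 (GRCm38, 38723370 to 38927688, minus strand). Its level at day 7 was 112 and 128 CPM with Nr6a1 guides and 166, 169 and 179 CPM with NT. At day 9, when the transcript was lower in all libraries, it was 54.6 and 63.7 CPM against 67.1, 75.3 and 69.6 CPM. The groups did not overlap on either day, and over both days the transcript fell by 0.39 on the log2 scale (SE 0.0711, adjusted p = 0.0106, edgeR). At day 9 alone the difference was -0.26 and did not pass (adjusted p = 0.27). Over the same days the level was also lower than with Eed guides (by a log2 difference of -0.45, adjusted p = 3e-05), Ezh2 guides (-0.32, adjusted p = 0.0086) and Brd8 guides (-0.62, adjusted p = 5.9e-07), the other guide sets of the series. The neighbouring genes that could be tested, Nr5a1, Psmb7, Nek6 and Rpl35, did not pass, with log2 differences of 1.03 (SE 0.817), 0.01, 0.06 and -0.06. An antisense gene, Nr6a1os, overlaps Nr6a1, and the sources used here do not state whether counting used the strand, so reads of the pair cannot be told apart.

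Over both days 322 genes (2.32% of those tested) passed an adjusted p of 0.05: 157 rose (1.13%) and 165 fell (1.19%). Most changes were small. Only 12 of the genes that rose and 28 of those that fell changed by 2-fold or more, and the medians among the called genes were 0.43 and -0.41 on the log2 scale. The groups did not overlap within either day for 133 of the genes that rose (3.64% of all tested genes were higher in this way) and 144 of those that fell (3.9% were lower). Genes named below for their fold change were chosen from those without overlap, so for them it is no added evidence. The fit rested on few libraries, and 6 of the 10 moved the number of called genes by more than 1.5 times when left out. It came to 143 without Nr6a1 replicate 2 of day 7, 103 and 171 without NT replicates 1 and 2 of day 7, 82 without Nr6a1 replicate 1 of day 9, and 193 and 140 without NT replicates 1 and 2 of day 9. Of the other fits, those without replicate 3 of day 7 gave 402 (Nr6a1) and 245 (NT). Those without replicate 3 of day 9 gave 338 (Nr6a1) and 474 (NT). All 322 genes kept their sign in each of these fits. The number was 702 by DESeq2, 951 with no low-count filter and 109 with the spread of all 41 libraries, and counts for the gene lists moved with it. An unadjusted p under 0.05 was found for 2288 of the 13879 genes tested by edgeR, the background for such counts in the lists. The plot of all tested genes shows which genes led in each direction.

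**Figure D1:**
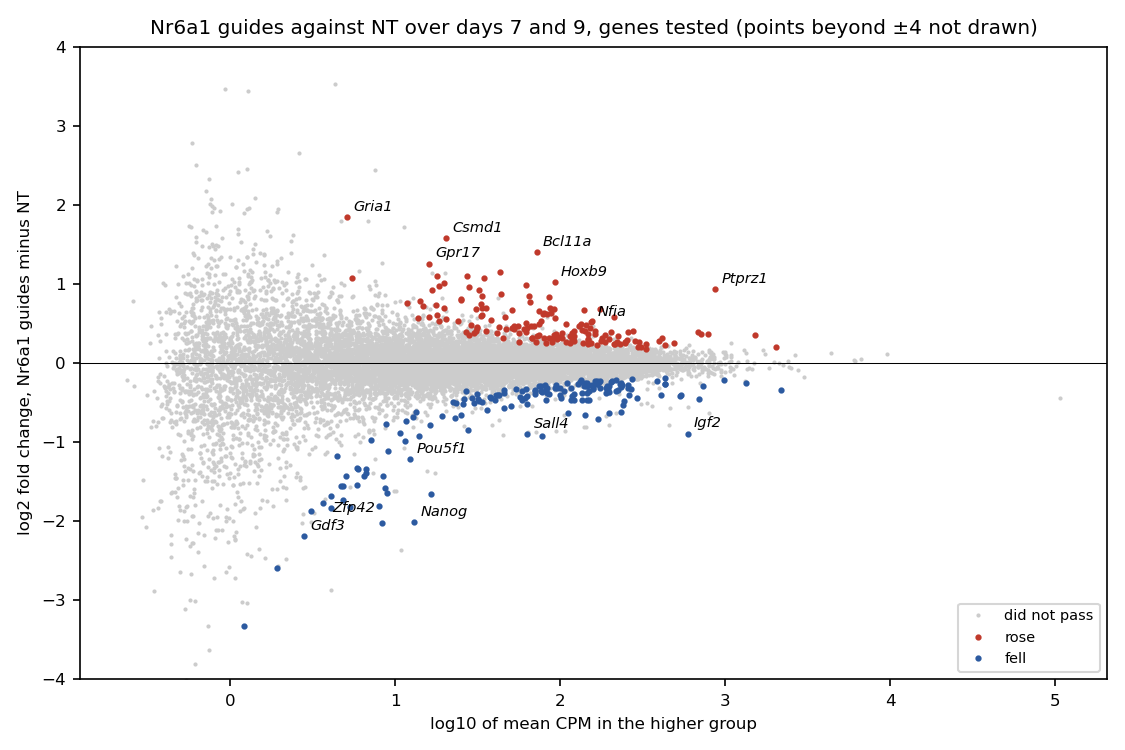
Log2 fold change of Nr6a1 guides against NT over days 7 and 9 (vertical axis) against the log10 of the mean CPM in the group with the higher mean (horizontal axis), 1 point per gene. The genes that fell by most, such as Nanog and Gdf3, had low levels, while Ptprz1 rose at a high level; Gm11538, at 7.96, and 7 genes that did not pass lie outside the axis.

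Genes of the pluripotent state had the lowest median of the 42 lists. Of 30 listed genes 28 were tested: 15 fell, 0 rose, and the median log2 change was -1.41, against -0.0027 over all genes. Those that fell included Nanog, Pou5f1 and Zfp42 (transcription factors of pluripotent cells), Klf2, Klf5 and Tfcp2l1 (factors of the naive state), Tdgf1, Gdf3 and Lefty1 (a co-receptor, a ligand and an inhibitor of Nodal signalling), and Dppa2, Dppa5a, Utf1 and L1td1. Sox2, which neural progenitors also express, did not pass (-0.10). Lists of other cell types had medians below 0 with few calls: epithelium -0.92 (all 15 members below 0, with 1, Cdh1, that fell, adjusted p = 0.0093), germline -0.83 (1 of 9 fell), endothelium and blood -0.74 (1 of 8 fell), muscle -0.67 and endoderm -0.63. By edgeR 0 of 9 muscle and 0 of 10 endoderm genes passed (1 and 2 at an unadjusted p under 0.05, 0 and 2 by DESeq2). Their part in the falls was not tested.

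Nanog stood at 2.36 and 5.11 CPM with Nr6a1 guides at day 7 and at 25.1, 10.7 and 11.9 CPM with NT. At day 9 it stood at 1.98 and 3.25 CPM against 9.62, 10.7 and 9.94 CPM. Every Nr6a1 library was below every NT library, and Nanog fell by 2.01 on the log2 scale (SE 0.27, adjusted p = 0.00178). Pou5f1, which encodes Oct4, was at 4.26 and 7.36 CPM against 16.5, 13.3 and 10.2 CPM at day 7. Its levels at day 9 were 5.34 and 4.06 CPM against 15.2, 11.2 and 7.52 CPM. The groups did not overlap on either day, and Pou5f1 fell by 1.21 (SE 0.22, adjusted p = 0.0103). Zfp42, which encodes Rex1, was at 1.54 and 4.45 CPM against 12.7, 8.43 and 9.27 CPM at day 7. At day 9 it was at 1.23 and 1.15 CPM against 8.01, 4.64 and 7.002 CPM, and over both days it fell by 2.02 (SE 0.299, adjusted p = 0.00322). These levels are a small part of the RNA, and in bulk samples fewer cells of a type and less RNA per cell cannot be told apart.

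The promoters of Pou5f1 and Nanog are shown because both genes are background targets of Nr6a1, both fell and both promoters held the hexamer. The presence of the hexamer in them was therefore part of the choice. The promoter of Igf2, which also fell, held it too and is not shown. Each stretch was taken from RefSeq (GRCm38.p6, plus strand of the genome), with the hexamer AGGTCA, or its reverse complement TGACCT, in capitals. The Pou5f1 stretch, chr17:35505969-35506031, ends at the base before the RefSeq transcription start (GENCODE M21 starts the gene earlier, at 35506018, inside the stretch), and the Nanog stretch, chr6:122707239-122707276, begins 250 bases before it.
Pou5f1: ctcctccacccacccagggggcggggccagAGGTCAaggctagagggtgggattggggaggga
Nanog: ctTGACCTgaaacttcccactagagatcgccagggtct
Searched on both strands over the 250 bases before the start, AGGTCA was present in 15.76% of 27025 promoters, and that hexamer followed directly by another copy in 0.0037%. A match is a description of the letters and not a measured site. Of the 15 pluripotency genes that fell 9 had a promoter in the table, and only the 2 shown held the hexamer. With promoters for 218 of the 322 called genes, no share over the called genes is compared.

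**Figure D2:**
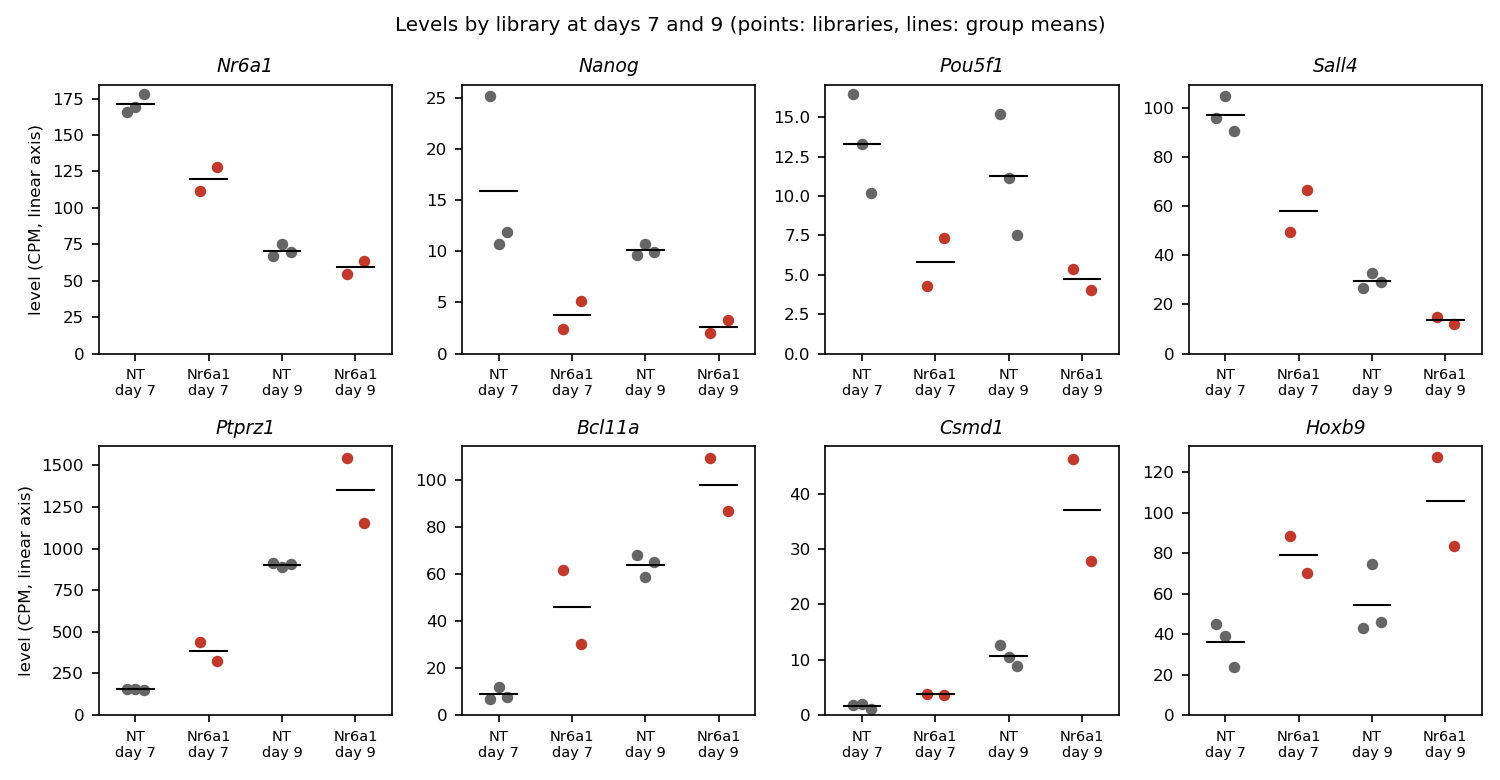
Level in CPM (vertical axes, linear) of 8 genes in each of the 10 libraries, by guide and day (horizontal axes), with group means as lines. Nr6a1, Nanog, Pou5f1 and Sall4 were lower in every Nr6a1 library than in every NT library of the day, and Ptprz1, Bcl11a, Csmd1 and Hoxb9 were higher.

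The list of pluripotency genes changed with the libraries used. It had 9 members that fell without Nr6a1 replicate 2 of day 7, 8 without NT replicate 1 of day 7 and 8 without Nr6a1 replicate 1 of day 9, and 2 when the spread was estimated over all 41 libraries. No library left out on its own ended the calls of Nanog, Pou5f1, Zfp42, Dppa2, Klf5 or Sall4. With the spread of all 41 libraries only Sall4 of these 6 passed (adjusted p = 0.000171), and Nanog, Pou5f1, Zfp42, Dppa2 and Klf5 did not (adjusted p = 0.133, 0.157, 0.0946, 0.0643 and 0.0712). The calls of Gdf3, Tdgf1, Klf2 and Lefty1 were lost without any 1 of 7 or 8 libraries (adjusted p up to 0.123, 0.111, 0.109 and 0.114). The call of Dppa5a was lost without any 1 of 3 libraries, Nr6a1 replicate 2 and NT replicate 1 of day 7 and Nr6a1 replicate 1 of day 9 (adjusted p up to 0.0737). L1td1 and Utf1 were lost without Nr6a1 replicate 1 of day 9 (adjusted p up to 0.0531 and 0.0549), and Utf1 also without NT replicate 1 of day 7. The summed level of 3 markers of pluripotent cells (Pou5f1, Nanog and Zfp42, of which 3 fell and none was at 0) was 8.15 to 16.9 CPM with Nr6a1 guides and 31.3 to 54.2 CPM with NT at day 7, and 8.47 to 8.55 against 24.5 to 32.8 CPM at day 9. How far a change in remaining pluripotent cells moved the list was not tested.

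Against the other guide sets most of these genes did not pass. The tests of Nr6a1 against each set used the 27 libraries of days 7 and 9, and were chosen after the data were seen. Of the 28 genes 5 were lower than with Eed guides (background 13.8% lower), 2 lower than with Ezh2 guides (3.51%, or 7.01% in either direction) and 4 lower than with Brd8 guides (15.1%), with medians of -0.48, -0.37 and -0.06. For Nanog the log2 differences were -0.84, -0.35 and 0.22 (adjusted p = 0.298, 0.804 and 0.831), and for Pou5f1 they were 0.28, 0.15 and 0.82 (adjusted p = 0.639, 0.881 and 0.127). The Pou5f1 libraries of Eed, Ezh2 and Brd8 guides at day 7 ran from 2.76 to 3.40, 2.82 to 6.23 and 0.614 to 4.78 CPM, all below the 3 NT libraries. All 4 guide sets were compared with the same NT libraries. The median of the list against NT was -1.09 for Eed, -1.01 for Ezh2 and -1.39 for Brd8. With Eed guides 6 members were lower (9.44% of all genes) and 1 higher (9.18%). With Brd8 guides 13 were lower (12.2%) and 2 higher (11.7%). With Ezh2 guides 0 passed by edgeR, where 0.0823% of all genes did (0.0137% lower and 0.0686% higher).

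Sall4, a zinc finger factor of stem cells and early progenitors, was lower than with every other guide set. It was at 49.5 and 66.7 CPM with Nr6a1 guides and at 95.8, 105 and 90.5 CPM with NT at day 7. Its day 9 levels were 15.03 and 11.99 CPM against 26.6, 32.6 and 29.0 CPM. The groups did not overlap, and Sall4 fell by 0.90 (SE 0.108, adjusted p = 0.00123). The difference also passed against Eed guides (-1.35, adjusted p = 7.2e-09), Ezh2 guides (-0.81, adjusted p = 0.00019) and Brd8 guides (-1.47, adjusted p = 1e-09). The differences from Eed and Brd8 guides were larger than the fall against NT, so shifts of those sets away from NT enter them. Trim71, a ubiquitin ligase and RNA-binding protein of early progenitors, was at 107 and 100.2 CPM against 168, 175 and 179 CPM at day 7. By day 9 it stood at 29.5 and 38.7 CPM against 50.1, 51.2 and 41.3 CPM. It fell by 0.63 (SE 0.0847, adjusted p = 0.00178), and it was lower than with each of the other guide sets (-0.68, -0.43 and -0.68 for Eed, Ezh2 and Brd8, adjusted p = 7.8e-05, 0.0248 and 0.000104).

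Trim71 and Nr6a1 are members of a list of heterochronic genes, whose levels mark early developmental time. Of its 14 members, 7 fell and 0 rose: Lin28a (an RNA-binding repressor of let-7 maturation, -0.41), Trim71, Prtg (a receptor of early neuroepithelium, -0.61), Hmga2 (a chromatin protein, -0.36), Igf2bp1 and Igf2bp2 (RNA-binding proteins, -0.29 and -0.26) and Nr6a1. Nr6a1 is the targeted gene, so the count without it is 6 of 13. Their relatives Lin28b (-0.07) and Igf2bp3 (-0.08) did not pass. Prtg was at 219 and 288 CPM with Nr6a1 guides and 356, 397 and 393 CPM with NT at day 7. At day 9, where Prtg was low in all libraries, it was at 38.6 and 70.0 CPM against 79.8, 91.0 and 81.3 CPM (adjusted p over both days 0.0124). Prtg was lower than with Eed, Ezh2 and Brd8 guides as well (-0.91, -0.64 and -0.96). Those guide sets themselves differed from the shared NT libraries. With Eed guides 5 members of the list were higher than NT (9.18% of all genes) and 0 lower. With Brd8 guides 7 were higher (11.7%) and 1 lower (12.2%), and 0 passed with Ezh2 guides by edgeR. The number that fell with Nr6a1 guides was 4 without NT replicate 1 of day 7 and 4 without Nr6a1 replicate 1 of day 9. These omissions ended the calls of Hmga2, Igf2bp1 and Igf2bp2 (adjusted p up to 0.109, 0.0796 and 0.0944).

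A list of 12 genes reported as Nr6a1 targets or bound by it had 9 tested members, of which 5 fell (Nanog, Pou5f1, Tdgf1, Gdf3 and Lin28a) and 0 rose, with 4 of the 5 also in the pluripotency list. Gdf9, an oocyte growth factor, Gpd2, Ccnd1 and Dnmt3b did not pass (0.11, -0.14, -0.34 and -0.37). The count was 3 without Nr6a1 replicate 2, NT replicate 1 or NT replicate 2 of day 7, or without Nr6a1 replicate 1 or NT replicate 2 of day 9, and 0 when the spread was estimated over all 41 libraries.

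Several genes of later neural and glial development rose. Of 22 tested genes of the gliogenic switch and astroglia 5 rose and 0 fell (median 0.31): Ptprz1 (a receptor-type tyrosine phosphatase found in radial glia), Slc1a3 (the glutamate transporter GLAST), Nfib and Nfia (nuclear factor I genes, which start gliogenesis) and Ttyh1 (a membrane protein of neural stem cells). Ptprz1 was at 441 and 324 CPM with Nr6a1 guides and at 156, 158 and 153 CPM with NT at day 7. At day 9, when all libraries were higher, it was at 1546 and 1156 CPM against 912, 890.0 and 906 CPM. The groups did not overlap, and Ptprz1 rose by 0.94 (SE 0.115, adjusted p = 0.00123). Nfia was at 87.1 and 92.8 CPM against 51.4, 70.5 and 53.1 CPM at day 7. The values at day 9 were 247 and 191 CPM against 159, 158 and 179.7 CPM, and it rose by 0.52 (SE 0.0904, adjusted p = 0.00849). Slc1a3 rose by 0.85 (SE 0.139, adjusted p = 0.00629), from 20.9, 24.0 and 12.5 CPM to 44.9 and 36.7 CPM at day 7, and from 51.1, 55.8 and 60.6 CPM to 102 and 73.5 CPM at day 9. Sox9, the factor that opens the glial programme, did not pass (0.32).

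These genes were also higher than with the other guide sets. Ptprz1 differed by 1.61 from Eed, 1.20 from Ezh2 and 2.08 from Brd8 guides (adjusted p = 4.5e-09, 1.5e-06 and 5.9e-11). For Nfia the differences were 1.26, 0.77 and 1.40 (adjusted p = 3.8e-07, 0.00182 and 1.3e-07), and for Slc1a3 0.82, 0.80 and 0.77 (adjusted p = 2.6e-05, 0.000712 and 8.1e-05). Of the whole list 10 were higher than with Eed (background 13.8%), 7 than with Ezh2 (3.5%) and 10 than with Brd8 guides (15.5%), and 2 were lower in each. Those guide sets themselves differed from the shared NT libraries. With Eed guides 3 members were higher than NT and 7 lower (9.18% and 9.44% of all genes). The numbers were also 3 and 7 with Brd8 guides (11.7% and 12.2%), and 0 passed with Ezh2 guides by edgeR. The number of members that rose with Nr6a1 guides against NT was between 4 and 7 when a library was left out. By edgeR it was 6 at day 7 alone and 1 at day 9 alone, where 0.483% and 0.144% of all genes rose. Nfia, Slc1a3 and Ttyh1 did not pass at day 9 alone (adjusted p = 0.168, 0.133 and 0.0801, edgeR). With no low-count filter 10 members rose and 1 fell, where 951 of all genes passed in either direction. Of 3 glial markers (Gfap, Aldh1l1 and Pdgfra) 2 had a 0 in some library, 2 were tested and 0 passed. Gfap was at most 0.141 CPM. Their summed level was 7.94 to 10.7 CPM with Nr6a1 guides and 4.75 to 13.9 CPM with NT at day 7. At day 9 it was 22.4 to 53.02 CPM against 9.34 to 15.8 CPM, without overlap. Pdgfra was then at 36.7 and 11.9 CPM in the Nr6a1 libraries. Sums of other marker sets also stood apart at day 9. The motor neuron lineage was higher (456 to 472 against 395 to 443 CPM), and floor plate and V3 lower (58.6 to 68.5 against 69.2 to 111 CPM). The part of the glial markers in the result was not tested.

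In the oligodendrocyte lineage 3 of 13 tested genes rose and 0 fell, among them Ptprz1 again and Gpr17 (a receptor of committed precursors, 1.26). Gpr17 was near its floor at day 7, with 2.36 and 1.59 CPM against 1.03, 0.711 and 0 CPM. Day 9 levels were 39.7 and 20.1 CPM against 10.8, 14.4 and 14.8 CPM (SE 0.286, adjusted p over both days 0.029). Its call was lost without any 1 of 5 libraries (adjusted p up to 0.216). In the list 5 genes rose without Nr6a1 replicate 3 of day 9 and 7 with no low-count filter, but only 1 without Nr6a1 replicate 2 or NT replicate 2 of day 7, or without Nr6a1 replicate 1, NT replicate 1 or NT replicate 2 of day 9. Olig1, Sox10 and Pdgfra, which define precursors, had values of 0.82, 0.74 and 1.14 and did not pass.

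**Figure D3:**
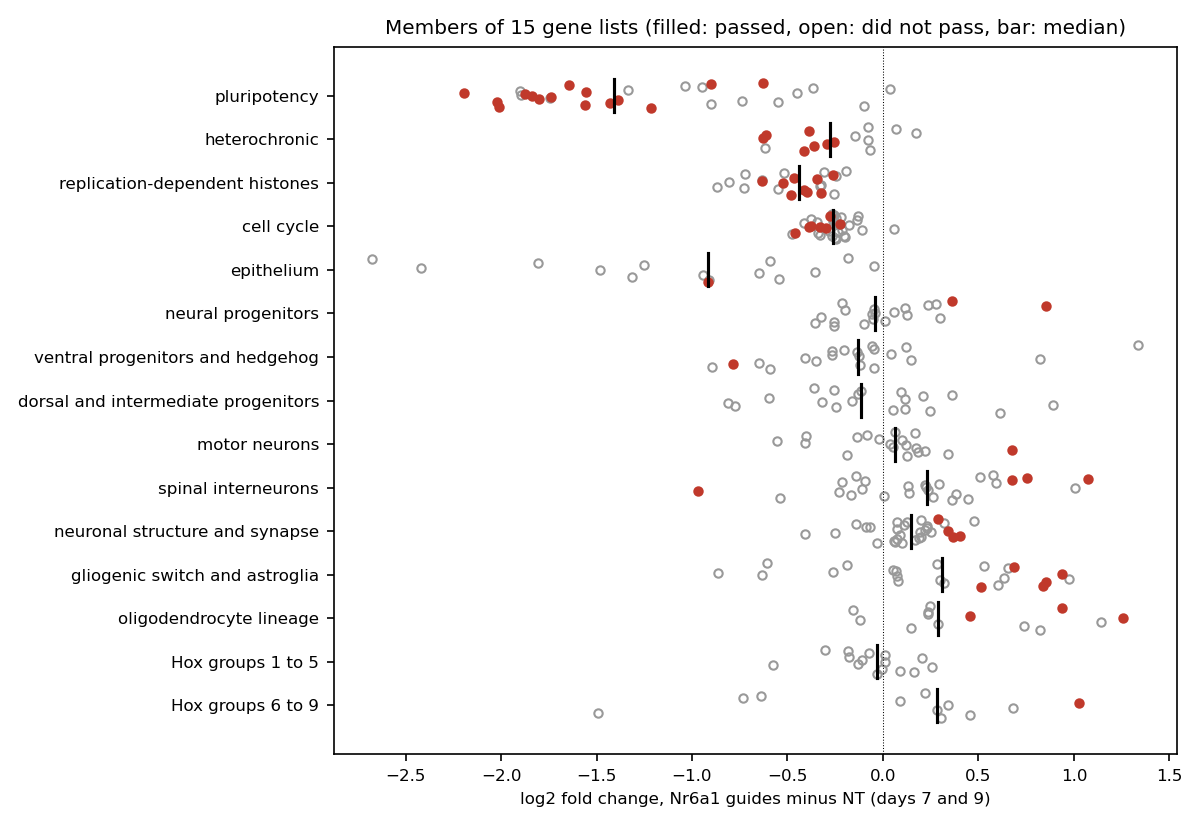
Log2 fold change of Nr6a1 guides against NT over days 7 and 9 (horizontal axis) for the tested members of 15 gene lists (rows), with members that passed filled and the median as a bar. The medians ran from -1.41 for pluripotency genes to 0.31 for genes of the gliogenic switch, and 15 of 28 and 5 of 22 members passed in these lists.

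A few neuronal genes rose by small amounts. Of 30 genes of neuronal structure and the synapse 4 rose (Mapt 0.40, Map2 0.37, Syt1 0.34 and L1cam 0.29) and 0 fell. The number was 2 without NT replicate 1 of day 7 and 1 without Nr6a1 replicate 1 of day 9. It was 2 without NT replicate 2 of day 9 and 8 without NT replicate 3 of day 9. Over all genes 103, 82, 140 and 474 passed in these fits, in either direction. The call of Syt1 was lost without any 1 of 7 libraries, that of L1cam without any of 3 and that of Mapt without Nr6a1 replicate 1 of day 9 (adjusted p up to 0.182, 0.0588 and 0.0522). The 4 general neuron markers (Tubb3, Elavl3, Dcx and Stmn2) did not pass, and their summed level was 2887 to 3123 CPM against 2597 to 2715 CPM at day 7 and 3836 to 3907 against 3432 to 3992 CPM at day 9. Map2, a dendritic microtubule protein, was at 601 and 472 CPM against 359, 407 and 365 CPM at day 7. At day 9 it was at 1094 and 961 CPM against 926, 838 and 877 CPM (SE 0.0706, adjusted p over both days 0.0137).

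Larger changes were found in single regulators. Bcl11a, a zinc finger repressor of maturing neurons, was at 61.6 and 30.05 CPM with Nr6a1 guides and at 6.87, 11.9 and 7.86 CPM with NT at day 7. At day 9 it was at 109 and 86.6 CPM against 68.1, 58.6 and 64.8 CPM, and it rose by 1.40 (SE 0.265, adjusted p = 0.0125). Day 7 showed the larger change (2.38, against 0.62 at day 9), but the difference between days did not pass. Its relative Bcl11b rose by 1.15 (SE 0.253, adjusted p = 0.0254), a call lost without NT replicates 1 or 2 of day 7 or Nr6a1 replicate 1 of day 9 (adjusted p up to 0.0791). Csmd1, a membrane protein of the nervous system, was at 3.81 and 3.64 CPM against 1.74, 2.03 and 1.11 CPM at day 7. Its day 9 levels were 46.4 and 27.8 CPM against 12.6, 10.4 and 8.82 CPM, and it rose by 1.58 (SE 0.194, adjusted p = 0.00123). Bcl11a and Csmd1 were higher than with each other guide set: by 1.94, 1.68 and 1.92 for Bcl11a, and by 1.71, 1.43 and 1.70 for Csmd1 (Eed, Ezh2 and Brd8, adjusted p at most 0.00123).

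Gria1, an AMPA receptor subunit, had the largest rise among the genes named by the rule (1.85, SE 0.465, adjusted p = 0.045). It was at 2.36 and 1.86 CPM against 0.0941, 0.203 and 0.101 CPM at day 7, and at 10.3 and 5.83 CPM against 5.11, 2.52 and 5.62 CPM at day 9, and its call was lost without any 1 of 8 libraries (adjusted p up to 0.113). Reln, a secreted guidance protein, rose by 0.99 (SE 0.162, adjusted p = 0.00673). It was at 63.9 and 47.4 CPM against 33.8, 24.7 and 18.4 CPM at day 7, and at 89.8 and 47.1 CPM against 33.7, 37.8 and 39.8 CPM at day 9. Thra, the thyroid hormone receptor alpha, rose by 0.63 (SE 0.0792, adjusted p = 0.00133) and was the only other nuclear receptor gene of 32 tested that passed. Sox6 (0.69), Erbb4 (0.85) and Abat (0.45), chosen after their values were seen, rose with adjusted p of 0.00521, 0.00533 and 0.00178 and were higher than with all 3 other guide sets. Abat was itself lower than NT with Eed and Brd8 guides (-0.43 and -0.53, adjusted p = 0.00245 and 0.000407, edgeR). Erbb4 was lower than NT with Brd8 guides (-0.57, adjusted p = 0.0161, edgeR).

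Few patterning genes passed by edgeR. Of 19 dorsal and intermediate progenitor genes 0 passed by edgeR (1 at an unadjusted p under 0.05, 1 by DESeq2), and of 12 tail bud genes 0 (2 and 0), and of 20 ventral and hedgehog genes 1 fell (Nkx2-9, -0.79, lost without any 1 of 6 libraries, adjusted p up to 0.122). For the ventral list the number that fell was 5 by DESeq2, 5 with no low-count filter, 3 without NT replicate 3 of day 9 and 2 without Nr6a1 replicate 3 of day 9. Over all genes 702 passed by DESeq2 and 951 with no low-count filter, in either direction. Without NT replicate 3 of day 9 and without Nr6a1 replicate 3 of day 9, 474 and 338 of all genes did. In the ventral list 0 rose over both days by edgeR, but 2 rose at day 9 alone (0.144% of all genes). With no low-count filter 1 rose, as it did without Nr6a1 replicate 3 of day 7 or of day 9. Of 19 motor neuron genes 1 rose: Lhx1 (0.67), a factor of motor neurons and interneurons, at 42.3 and 31.5 CPM against 21.8, 18.1 and 16.7 CPM at day 7 and 68.0 and 61.4 CPM against 45.8, 44.5 and 53.8 CPM at day 9. Of 26 interneuron genes 3 rose, Lhx1 and the GABA-synthesis genes Gad1 (1.08) and Gad2 (0.76), and 1 fell, Uncx (-0.97). The calls of Gad1, Gad2 and Uncx were lost without any 1 of 7, 5 and 8 libraries (adjusted p up to 0.144, 0.133 and 0.148), and 1 gene rose without Nr6a1 replicate 2 or NT replicate 1 of day 7, or without Nr6a1 replicate 1 or NT replicate 2 of day 9.

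A minority of proliferation genes fell, by small amounts. Of 34 cell cycle genes 7 fell and 0 rose, with a median of -0.26: Ccnd2 (a D-type cyclin, -0.46), Mcm2, Mcm3, Mcm4, Mcm5 and Mcm7 (subunits of the replicative helicase, -0.22 to -0.38) and Rrm2 (ribonucleotide reductase, -0.28). Mcm4 was at 161 and 173 CPM against 209.7, 207 and 201 CPM at day 7, and at 83.5 and 89.1 CPM against 106, 120.3 and 106 CPM at day 9 (-0.33, SE 0.0556, adjusted p = 0.00763). The values of Ccnd2 were 616 and 709 CPM against 987, 885 and 782 CPM at day 7 and 326 and 388 CPM against 472, 593 and 449.5 CPM at day 9 (adjusted p = 0.00845). The count of genes that fell was 4 without NT replicate 1 of day 7, 3 without Nr6a1 replicate 1 of day 9, 4 without NT replicate 2 of day 9, 12 without Nr6a1 replicate 3 of day 7 and 11 without NT replicate 3 of day 9. It was 0 at day 7 alone and 2 at day 9 alone by edgeR, 22 with no low-count filter, 15 by DESeq2 and 3 with the spread of all 41 libraries. In the last 3 settings 951, 702 and 109 of all genes passed, in either direction. Without Nr6a1 replicate 3 of day 7 and without NT replicate 3 of day 9, 402 and 474 of all genes did. The call of Mcm3 was lost without Nr6a1 replicate 1 of day 9 (adjusted p = 0.0549). Of 10 cell cycle inhibitors 0 passed by edgeR (5 at an unadjusted p under 0.05, 0 by DESeq2), and of 27 targets of p53 0 (2 and 1). Over all 13879 genes 2288 had an unadjusted p under 0.05.

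Among replication-dependent histone genes, which are transcribed in S phase, some fell too. All 22 tested had a value below 0, 9 fell, and the median was -0.44. Hist1h1e, a linker histone, was at 510.5 and 462 CPM against 651, 681 and 701 CPM at day 7, and at 279 and 325 CPM against 396, 421 and 335 CPM at day 9 (-0.41, adjusted p = 0.00459). Near-identical copies can share reads, so values of single histone genes are uncertain. The count was 3 without NT replicate 1 of day 7, 3 without Nr6a1 replicate 1 of day 9, 5 without NT replicate 3 of day 7 or NT replicates 1 or 2 of day 9, and 14 without NT replicate 3 of day 9. It was 21 with no low-count filter and 3 with the spread of all 41 libraries, where 951 and 109 of all genes passed in either direction. Without NT replicate 3 of day 9, 474 of all genes did. Against the other guide sets 21, 10 and 21 of the 22 histone genes were lower (Eed, Ezh2 and Brd8), as were 34, 24 and 34 of the 34 cell cycle genes, beside 13.8%, 3.51% and 15.1% of all genes. Those guide sets themselves differed from the shared NT libraries: 31 and 34 cell cycle genes and 9 and 11 histone genes were higher than NT with Eed and Brd8 guides (9.18% and 11.7% of all genes), and 0 of either list with Ezh2 guides by edgeR.

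Growth and metabolic genes among those that fell included Igf2 and Slc2a3. Igf2, an imprinted fetal growth factor, was at 244 and 292 CPM against 436, 524 and 424 CPM at day 7. By day 9 it stood at 302 and 425 CPM against 608, 962 and 609 CPM, and it fell by 0.89 (SE 0.124, adjusted p = 0.00207). It was lower than with Eed (-1.34), Ezh2 (-0.92) and Brd8 guides (-1.47) as well, with adjusted p of at most 0.000413. Peg10, another imprinted gene expressed from the paternal allele, fell by 0.34 (SE 0.0461, adjusted p = 0.00178), while the imprinted Nnat rose by 0.36 (SE 0.068, adjusted p = 0.0125). Slc2a3, a neuronal and embryonic glucose transporter, was at 44.2 and 46.6 CPM against 100.7, 64.7 and 55.0 CPM at day 7, and at 36.1 and 37.5 CPM against 83.1, 83.9 and 77.5 CPM at day 9 (-0.93, adjusted p = 0.00251). By edgeR 0 of 23 genes of cholesterol synthesis, 0 of 27 of oxidative phosphorylation, 0 of 11 of the interferon response and 0 of 13 PRC2 genes passed, with 1, 1, 1 and 3 at an unadjusted p under 0.05 and 0 in each by DESeq2.

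Hox genes, which give cells their position along the trunk, had 1 call over both days by edgeR. Of 15 tested genes of groups 1 to 5, 0 passed by edgeR (2 at an unadjusted p under 0.05, 1 by DESeq2), and of 11 of groups 6 to 9 only Hoxb9 rose. In groups 1 to 5, 2 fell at day 7 alone (0.231% of all genes), and 2 rose and 1 fell with no low-count filter. In groups 6 to 9 the number was 3 without Nr6a1 replicate 3 of day 7 and 2 without NT replicate 3 of day 9. It was 2 by DESeq2 and 4 with no low-count filter. Over all genes 402, 474, 702 and 951 passed in these fits, in either direction. Hoxb9 was at 88.6 and 70.1 CPM with Nr6a1 guides and at 45.1, 39.2 and 23.6 CPM with NT at day 7. The values at day 9 were 128 and 83.9 CPM against 43.1, 74.9 and 45.9 CPM. No Nr6a1 library was as low as an NT library of the day, and Hoxb9 rose by 1.03 (SE 0.168, adjusted p = 0.00629). Its neighbours along the cluster had values of 0.34 (Hoxb8), 0.68 (Hoxb7, adjusted p = 0.0521), 0.28 (Hoxb6) and 0.21 (Hoxb5), and none of them passed. No difference of Hoxb9 from Eed (-0.46, adjusted p = 0.183) or Ezh2 guides (-0.37, adjusted p = 0.448) was detected, and it was lower than with Brd8 guides (-1.62, adjusted p = 3.1e-05).

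A transcript between Hoxb9 and Hoxb13 was present with Nr6a1 guides and had no counts in NT. Gm11538 is annotated by RefSeq as a long non-coding RNA on chromosome 11 (GRCm38.p6, 96203454 to 96205480), 65.8 kb from Hoxb9 and 6.8 kb from Hoxb13. It was chosen after its values were seen. It had 26 and 39 counts in the Nr6a1 libraries of day 7 and 55 and 19 counts in those of day 9, and 0 in all 6 NT libraries. Set against 3 counts over the NT group, its rate was at least 56.0-fold higher, a description with no test, since the gene was picked for this pattern. Among the 17 libraries of the other guide sets at days 7 and 9, 1 had counts of Gm11538 (3, with Eed guides at day 9). Hoxb13, its neighbour, was too low to be tested: it had 8, 11, 4 and 0 counts with Nr6a1 guides and 1 count over the 6 NT libraries. The ratio of the rates was 27.8 (95% exact binomial interval 4.51 to 1144, counting error only), but 1 Eed library of day 9 had 13 counts. The interval pools the libraries and leaves out the spread between them. Hoxb13 was looked at beside a gene picked for its pattern, so the ratio and interval are a description and not a test.

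**Figure D4:**
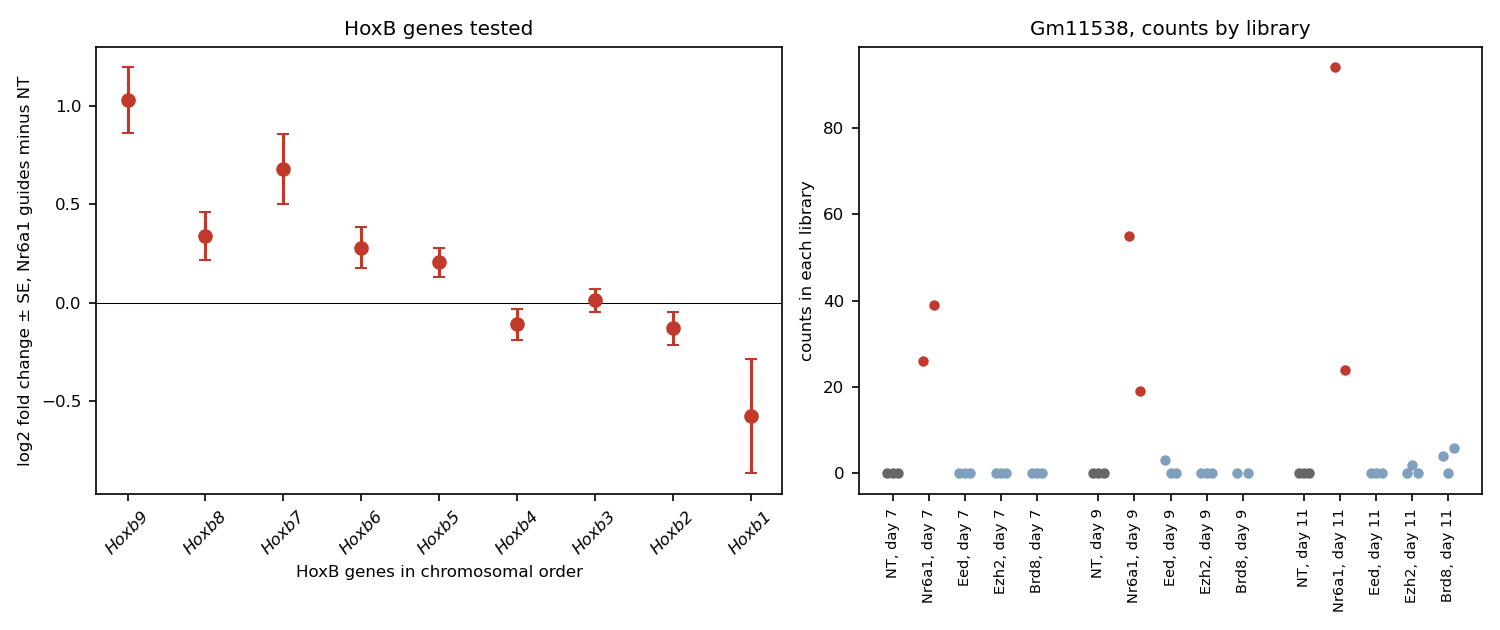
Left, log2 fold change with its SE (vertical axis) of 9 HoxB genes in chromosomal order (horizontal axis) for Nr6a1 guides against NT; Hoxb9, at 1.03, passed. Right, counts of Gm11538 in each library (vertical axis) by guide set and day (horizontal axis): 19 to 94 in the 6 Nr6a1 libraries, 0 in NT and at most 6 in the other sets.

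The effect was not shown to differ between the days. Day 7 alone gave 99 genes (0.713%), 67 that rose (0.483%) and 32 that fell (0.231%), and day 9 alone 20 (0.144%) and 23 (0.166%), but 0 genes passed the test of the difference by edgeR (877 at an unadjusted p under 0.05, and 31 by DESeq2). The number was 61 without Nr6a1 replicate 2 of day 7, 15 without Nr6a1 replicate 3 of day 7, 8 without Nr6a1 replicate 3 of day 9 and 2 without NT replicate 3 of day 9. Among the genes nearest to passing were Sim1 and Olig2, chosen after their values were seen. Sim1, a factor of V3 interneurons, was at 8.88 and 7.28 CPM against 3.01, 4.67 and 4.54 CPM at day 7, and at 14.0 and 14.8 CPM against 33.9, 42.8 and 24.7 CPM at day 9. Nr6a1 libraries were above NT at day 7 and below it at day 9, with a difference between the days of -2.25 (SE 0.337, adjusted p = 0.0506). Olig2, the motor neuron progenitor factor, was at 257 and 227 CPM against 275, 274 and 275 CPM at day 7 and at 228 and 210.2 CPM against 165, 159 and 151 CPM at day 9. At day 9 alone Sim1 fell by 1.24 and Olig2 rose by 0.47 (adjusted p = 0.0275 and 0.0118, edgeR). Neither passed over both days.

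At day 11 few of these genes passed. In separate libraries (2 with Nr6a1 guides and 3 with NT, a comparison chosen after the data were seen) 14 genes passed (0.102%), 10 that rose (0.0727%) and 4 that fell (0.0291%). Without NT replicate 3 it was 24 (0.172%), of which 18 rose (0.129%) and 6 fell (0.0431%). Of the 157 genes that had risen at days 7 and 9, 1 rose at day 11, Reln (0.80, adjusted p = 0.027), and the median of all 157 was 0.07. Of the 165 that had fallen none passed, and their median was -0.0039, against 0.0027 over all genes tested. Without NT replicate 3, 1 of 164 of them passed, as higher. Ptprz1 was at 2516 and 2237 CPM with Nr6a1 guides and at 2333, 2238 and 2391 CPM with NT, so the groups overlapped. Sall4 was at 19.2 and 29.2 CPM against 21.0, 19.7 and 28.2 CPM, again with overlap. Nanog was at 4.30 and 9.72 CPM against 5.91, 3.68 and 5.39 CPM, and the median of the pluripotency list was 0.50 with 0 members passing. Hoxb9 was at 128 and 161 CPM against 70.4, 92.4 and 72.2 CPM, without overlap, but did not pass (0.88, adjusted p = 0.057). Sim1 fell by 1.54 (adjusted p = 0.0087).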

How the data were processed

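Total RNA was extracted with DNase treatment and made into directional, ribosome-depleted libraries, per the labels' protocols; the library source is labelled genomic, which these protocols contradict. The authors deposited a table of estimated counts per gene. The build was mm10 and DESeq2 was used, per the submitters' processing notes; which aligner, quantifier and annotation were used is not given in the sources used here. Of 1000810 values 29525 (2.95%) were not whole, and the table was rounded before testing. Genes were kept by filterByExpr (13879 of 24410), scaled by TMM and tested with the quasi-likelihood F test of edgeR 4.0.16 in R 4.3.3, in a model with day and guide over 10 libraries (7 residual degrees of freedom). P-values were adjusted over all genes tested (Benjamini-Hochberg), with a threshold of 0.05, and SE is the log2 fold change divided by the square root of F. Depth was 10520080 to 25024891 counts per library.

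The genes and lists were chosen with earlier results of these data known. Named genes were Nr6a1 and its 3 nearest genes on either side, the 15 highest and 15 lowest fold changes among called genes without overlap on either day and with a mean of at least 2 CPM, up to 4 called members of each list with the smallest p, and any tested member of 4 lists; other names are examples of counts or were chosen after their values were seen. Alternatives were DESeq2 1.42.0, its size factors, no filter, a replicate block, all 41 libraries, each day alone, Rn45s left out and each library left out. Comparisons with the other guide sets and at day 11 were added after the data were seen. Positions come from GENCODE M21 (GRCm38) and RefSeq (GRCm38.p6). Some items are not reported here.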

Additional observations from a re-analysis of the deposited data

Results flagged for a closer look

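Gm11538, the non-coding transcript between Hoxb13 and Hoxb9, also had counts in libraries outside the comparison of days 7 and 9. At day 11 it had 94 counts in Nr6a1 replicate 1 and 24 counts in Nr6a1 replicate 3, against 0 in the 3 NT libraries of that day. The 9 libraries of the other guide sets at day 11 had 12 counts in all.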

How the results depend on the processing

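All 322 called genes kept their sign under every alternative, but their number depended on the fit. Genes higher and lower with Nr6a1 guides numbered 332 and 370 by DESeq2, 479 and 472 with no low-count filter, 81 and 28 with the spread of all 41 libraries, 67 and 32 at day 7 alone, and 20 and 23 at day 9 alone. With one library left out they ranged from 33 to 234 and from 49 to 240. Genes whose effect differed between days numbered 0, but 31 by DESeq2, 136 with no filter, 3 with all 41 libraries, and 0 to 61 with one library left out. The Nr6a1 transcript ranged from -0.46 to -0.32 with one library left out, and at day 9 alone its change was -0.26 and did not pass. The replicate block gave 137 and 121 genes and -0.41 for Nr6a1. Deviations from the group means of same-numbered libraries had r from -0.00827 to 0.0095. With 2 Nr6a1 libraries per day these deviations mirror each other, so they cannot decide whether the numbers pair the samples. Of 91 named genes that passed, 33 passed in all 16 settings over both days, 46 lost the call without at least 1 library, and 0 reversed. The cause of these differences was not tested. With 4 Nr6a1 libraries and no edited fraction, small effects and low genes remain imprecise.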
